A study of Mus musculus with 24 samples.

Results

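The 10 genes described here are 8 subunits of the SWI/SNF chromatin remodelling complex and 2 histone acetyltransferases that act with the muscle transcription factor MyoD: Smarca4, Smarca2, Smarcb1, Smarcc1, Smarcd1, Smarcd2, Smarcd3, Arid1a, Ep300 and Kat2b. They were chosen by name, with earlier results of these data known, from the 35197 genes that had at least 1 assembled transcript bearing their name. In the 24 libraries 811 such transcripts belonged to them. RNA came from 10T1/2 cells, a fibroblast line of mouse strain C3H that MyoD can turn into muscle, and from 2 lines of it labelled as knockouts of LncMyoD, a long non-coding RNA encoded beside Myod1. Each knockout line is 1 clone. Wild type, clone 1 and clone 2 were each studied untreated, with a MyoD adenovirus, with a LncMyoD plasmid and with both, in 2 libraries per group, which makes 8 libraries per line. No group received an empty virus or an empty plasmid. The labels give growth in 10% fetal bovine serum and a change to 2% horse serum after transdifferentiation by MyoD, so MyoD and the change of medium cannot be told apart. The labels do not say whether the 2 libraries of a group came from separate cultures, so p-values measure the spread between these libraries, which may be technical.

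SWI/SNF complexes use ATP to slide or evict nucleosomes. Each complex holds 1 of 2 ATPases, BRG1 (Smarca4) or BRM (Smarca2), on a core of SNF5 (Smarcb1) and BAF155 (Smarcc1), with 1 of 3 BAF60 subunits (Smarcd1, Smarcd2, Smarcd3) that link it to transcription factors. In muscle cells BAF60c (Smarcd3) binds MyoD at muscle genes before the ATPase arrives, and the acetyltransferases p300 (Ep300) and PCAF (Kat2b) acetylate histones and MyoD itself.

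The lines differed across the whole transcriptome before any member is considered. TPM, the deposited unit, is a length-corrected share of each transcript in its library. A ribosomal RNA repeat took 55.6% to 69.2% of it in the wild type libraries and 59.2% to 70.0% in 7 of those of clone 1, but 2.68% to 7.90% in those of clone 2. The first clone 1 library with MyoD alone stood apart at 36.8%. The mitochondrial share was 7.91% to 13.96% for clone 2, against 2.06% to 3.84% for the wild type libraries and 1.32% to 2.20% for clone 1. Wild type libraries had 8659 to 10692 genes at 1 TPM or more, clone 1 libraries 8264 to 10043 and clone 2 libraries 14078 to 15924. Over all genes tested the median log2 difference from wild type was -0.13 in clone 1 and 1.36 in clone 2. Depth, as the ratio of deposited coverage to FPKM, was 2.43 to 5.93 gigabases per library. Transcripts at the LncMyoD locus were present in 12 of 12 libraries with the plasmid and in 2 of 12 others, and in 0 of 4 wild type libraries without it, so the knockout could not be checked there. Myod1 was at 930 to 3735 TPM with the virus and at most 3.76 TPM without it. The 6 fibroblast markers summed to 186 to 475 TPM in wild type and clone 1. In clone 2 they summed to 10006 to 13061 TPM without MyoD and 2533 to 4111 TPM with it. Counting transcripts with or without a gene name, limma called 5 of them higher and 1 lower in clone 2 than in wild type. Of all genes 67.7% were called higher there and 4.5% lower. In clone 1 it called 1 marker higher and 5 lower, against 1.31% and 13.5% of all genes. The 6 muscle markers with MyoD summed to 390 to 873 TPM in clone 2, against 16.9 to 24.5 TPM for wild type and 3.58 to 7.59 TPM for clone 1. In clone 2 the adipocyte markers summed to 39.4 to 74.7 TPM with Plin1 at 0, against at most 8.28 TPM in the other lines. Macrophage, epithelial, endothelial and neuronal markers stayed at or below 10.7, 4.63, 2.93 and 3.75 TPM. The part of these differences in the results below was not tested, and in bulk RNA fewer cells of a type and less RNA per cell cannot be told apart.

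The assembly set how each member could be measured. Some transcripts at a member's exons carry the member's name, and others were assembled without a reference name. Over all 24 libraries named transcripts held 98.0% of the TPM assigned to Smarcb1, 74.3% for Ep300, 70.6% for Smarcd2, 70.2% for Smarcc1 and 57.1% for Smarca4. They held 46.8% for Smarcd1, 24.4% for Smarca2, 23.7% for Kat2b, 16.2% for Arid1a and 6.95% for Smarcd3. The named share also differed by line. In wild type, clone 1 and clone 2 it was 83.4%, 17.7% and 79.5% for Smarcc1, and 88.1%, 64.4% and 57.4% for Ep300. For Smarcd2 it was 25.5%, 20.1% and 78.4%, and for Arid1a 52.1%, 8.47% and 10.3%. The part of this in the differences between lines by name was not tested. Smarca4 was listed at 0 by name in 12 libraries, all 8 of clone 1 and 4 of wild type, although unnamed transcripts covered its exons in every one. Each member is therefore given in 3 ways: by named transcripts, by named and unnamed transcripts together, and by exon coverage, which is the mean coverage over all annotated exons on the TPM scale. Between the 2 libraries of a group the median absolute log2 difference over the members was 0.50 by name, 0.45 with unnamed transcripts and 0.23 by exon coverage. By name, 9 of the 10 members passed the filter on low values, and Smarcd3 did not. Unless another measure is named, member levels in TPM below, and overlaps between lines, are of named and unnamed transcripts together.

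**Figure D1:**
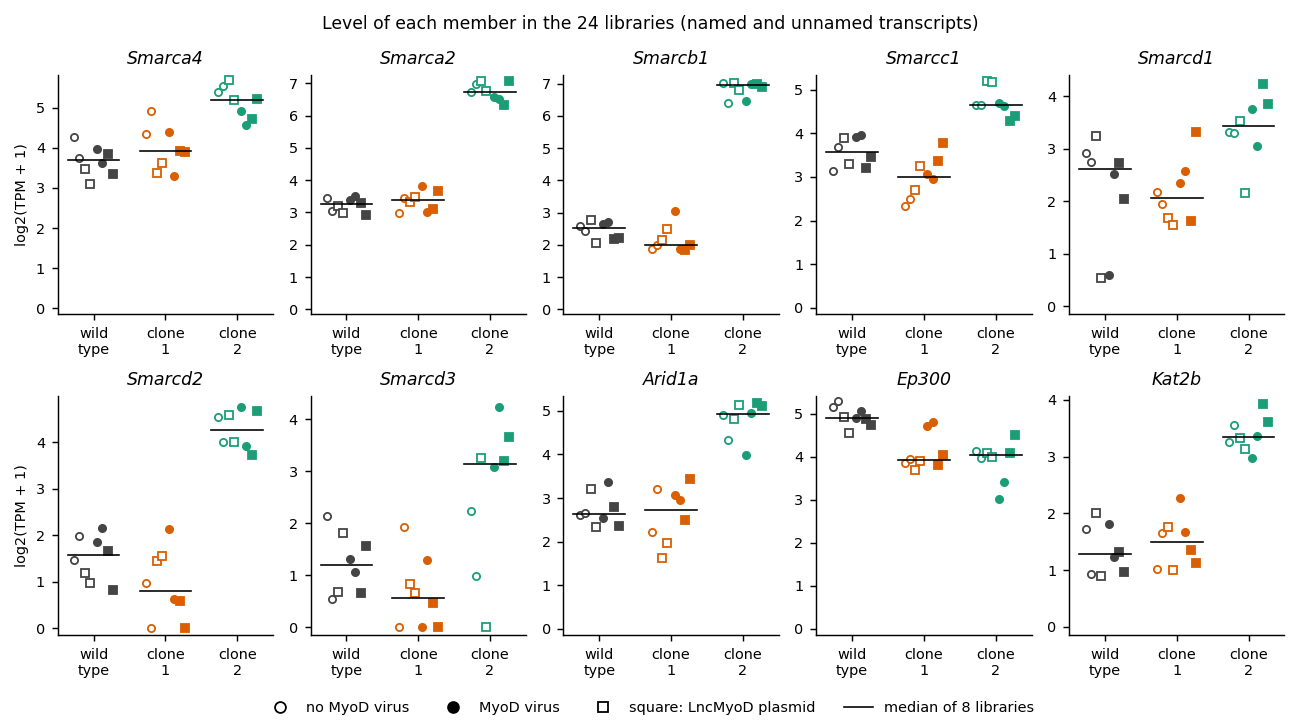
Levels of the 10 genes in all 24 libraries as log2(TPM + 1) on the vertical axis, named and unnamed transcripts together, with the 3 lines along the horizontal axis. Open symbols are libraries without MyoD virus, filled symbols with it, squares have the LncMyoD plasmid, and bars are medians of 8 libraries; Ep300 alone sits lower in clone 2, where its 8 libraries lie between 7.09 and 21.8 TPM, than in wild type, where they lie between 22.3 and 38.6 TPM.

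With unnamed transcripts both ATPases overlapped between wild type and clone 1 and were higher in clone 2 on the TPM scale. BRG1, encoded by Smarca4 (ENSMUSG00000032187.16, mm10 chr9:21616169-21704230, plus strand), is the ATPase that most vertebrate cells depend on. With unnamed transcripts wild type had lowest, median and highest levels of 7.55, 11.9 and 18.4 TPM, clone 1 had 8.91, 14.1 and 29.4 TPM, and clone 2 had 22.9, 35.7 and 50.9 TPM. Every clone 2 library was above every wild type library, whereas clone 1 overlapped both. The log2 difference of clone 2 from wild type was 1.48 ± 0.18 (SE, limma adjusted p = 6.8e-07), and it turned to -0.90 (adjusted p = 0.00011) when libraries were scaled by the median of ratios, which sets the typical gene to no difference. Clone 1 differed by 0.30 with unnamed transcripts (adjusted p = 0.32), by -0.85 by exon coverage (adjusted p = 0.00012) and by -1.62 ± 0.46 by name (adjusted p = 0.026), where its 8 libraries are listed at 0 and the size depends on the pseudocount. The direction for Smarca4 in clone 1 thus depended on which transcripts were counted. By name the call was lost, with adjusted p up to 0.058, without the untreated wild type library 2, the wild type library 1 with plasmid or with both, or the clone 1 library 1 with MyoD.

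BRM, encoded by Smarca2 (ENSMUSG00000024921.17, chr19:26605050-26778322, plus strand), is the alternative ATPase and is commonly more abundant in differentiated cells. Its named and unnamed transcripts were at 6.57, 8.59 and 10.4 TPM (lowest, median and highest) for wild type, 6.99, 9.42 and 13.2 TPM for clone 1, and 79.0, 106 and 133 TPM for clone 2. No clone 2 library came near those of the other lines. The difference of clone 2 was 3.52 ± 0.16 (limma adjusted p = 1.6e-12), and scaling by the median of ratios left it at 1.09 (adjusted p = 1.9e-06). Clone 1 was lower by name at -0.78 ± 0.23 (limma adjusted p = 0.029) and by exon coverage at -0.82 (adjusted p = 3.9e-06). With unnamed transcripts it stood at 0.13 (adjusted p = 0.75). By exon coverage every clone 1 library lay below every wild type library. By name the call was lost, with adjusted p up to 0.080, when any 1 of the 8 libraries of these lines numbered 1 was left out, and by exon coverage it held in 24 of 24 such fits.

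SNF5, the core subunit encoded by Smarcb1 (ENSMUSG00000000902.13, chr10:75896769-75921617, minus strand), had the largest difference of the 10 genes between clone 2 and wild type in each of the 3 measures. Wild type lay at 3.18, 4.69 and 5.803 TPM (lowest, median, highest), clone 1 at 2.58, 2.99 and 7.29 TPM and clone 2 at 84.0, 122 and 129 TPM. The wild type and clone 1 libraries overlapped and all clone 2 libraries stood far above them. By name the difference of clone 2 was 4.54 ± 0.33 (limma adjusted p = 2.8e-09), and it was 1.69 (adjusted p = 0.010) after scaling by the median of ratios. In clone 1 the value by name was -0.996 (adjusted p = 0.059) and did not pass the test.

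BAF155, the scaffold subunit encoded by Smarcc1 (ENSMUSG00000032481.17, chr9:110117708-110240178, plus strand), was lower in clone 1 in all 3 measures. Wild type lay at 7.78, 10.9 and 14.5 TPM, clone 1 at 4.04, 7.04 and 12.8 TPM and clone 2 at 18.5, 24.2 and 35.95 TPM. With unnamed transcripts the ranges of wild type and clone 1 overlapped, and those of wild type and clone 2 did not. By exon coverage every clone 1 library lay below every wild type library, and by name clone 2 overlapped wild type. Clone 1 differed by -2.38 ± 0.46 by name (limma adjusted p = 0.0022), by -0.58 ± 0.13 with unnamed transcripts (adjusted p = 0.0071) and by -0.82 by exon coverage (adjusted p = 5.1e-05). After scaling by the median of ratios the call held by name, at -2.42 (adjusted p = 0.0017), and was lost in the other measures, at -0.25 with unnamed transcripts (adjusted p = 0.20) and -0.29 by exon coverage (adjusted p = 0.12). Clone 2 was at 1.14 ± 0.13 with unnamed transcripts (adjusted p = 6.5e-07) and at -1.20 (adjusted p = 1.2e-07) on the median of ratios scale.

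The 3 BAF60 genes encode alternative subunits, and Smarcd3 is the one known for its role with MyoD. The RefSeq promoters of Smarcd3, Smarcd1 and Kat2b are shown because they hold the E-box CAGCTG, a sequence that MyoD is known to bind, and that of Ep300 is shown beside them because it is the member that was lower in both clones. Each window has 300 bases, from 250 before the RefSeq start to 50 after it, on build GRCm38.p6, written 5′ to 3′ on the gene's strand with every CANNTG in capitals. The windows are chr5:24601953-24602252 on the minus strand for Smarcd3, chr15:99702037-99702336 on the plus strand for Smarcd1, chr17:53583876-53584175 on the plus strand for the Kat2b window with CAGCTG and chr15:81585964-81586263 on the plus strand for Ep300.
Smarcd3: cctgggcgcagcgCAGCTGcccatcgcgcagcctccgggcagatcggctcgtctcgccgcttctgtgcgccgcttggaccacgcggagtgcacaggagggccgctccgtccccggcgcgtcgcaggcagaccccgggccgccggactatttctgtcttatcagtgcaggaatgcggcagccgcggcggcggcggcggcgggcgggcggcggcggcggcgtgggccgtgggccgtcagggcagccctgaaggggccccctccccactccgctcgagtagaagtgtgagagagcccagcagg
Smarcd1: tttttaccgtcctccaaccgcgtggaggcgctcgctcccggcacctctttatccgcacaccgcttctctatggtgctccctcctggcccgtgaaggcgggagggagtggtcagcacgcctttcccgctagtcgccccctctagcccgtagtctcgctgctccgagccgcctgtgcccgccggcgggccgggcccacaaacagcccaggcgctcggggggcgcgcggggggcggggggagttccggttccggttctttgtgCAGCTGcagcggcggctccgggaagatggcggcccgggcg
Kat2b: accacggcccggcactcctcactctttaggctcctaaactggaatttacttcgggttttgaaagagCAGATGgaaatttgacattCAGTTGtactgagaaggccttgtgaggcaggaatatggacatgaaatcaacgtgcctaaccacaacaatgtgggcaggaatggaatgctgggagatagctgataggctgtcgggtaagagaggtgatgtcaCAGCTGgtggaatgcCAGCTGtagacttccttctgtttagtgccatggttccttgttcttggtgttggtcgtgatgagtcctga
Ep300: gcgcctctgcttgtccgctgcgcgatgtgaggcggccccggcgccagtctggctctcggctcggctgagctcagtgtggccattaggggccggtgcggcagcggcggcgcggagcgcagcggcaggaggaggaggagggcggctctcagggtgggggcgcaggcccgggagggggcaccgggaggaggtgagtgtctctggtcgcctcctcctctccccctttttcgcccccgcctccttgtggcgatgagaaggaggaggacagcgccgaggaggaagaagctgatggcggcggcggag
CANNTG and CAGCTG read the same on both strands, and every CAGCTG is also a CANNTG. Smarcd3 and Smarcd1 held 1 CANNTG each, which was CAGCTG. This Kat2b window lies within the gene and held 4 CANNTG, of which 2 were CAGCTG. The other Kat2b window, at the annotated start of the gene, held 0, and Ep300 held 0. Among 12 windows that matched the 10 members, 7 held CANNTG and 3 held CAGCTG, against 72.3% and 16.3% of 32851 RefSeq windows of the same length. A match is a description of the letters and was not tested for binding.

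BAF60a, encoded by Smarcd1 (ENSMUSG00000023018.5, chr15:99702129-99713991, plus strand), varied widely between libraries of the same line. Wild type lay at 0.448, 5.15 and 8.46 TPM, clone 1 at 1.92, 3.18 and 9.01 TPM and clone 2 at 3.48, 9.78 and 17.7 TPM, and all 3 ranges overlapped. Clone 2 differed by 1.24 ± 0.38 with unnamed transcripts (limma adjusted p = 0.0075) and by -0.75 (adjusted p = 0.12) after scaling by the median of ratios. Exon coverage placed clone 1 lower, at -1.06 (adjusted p = 0.0012), and on that measure the call held after scaling, at -0.73 (adjusted p = 0.046).

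BAF60b, encoded by Smarcd2 (ENSMUSG00000078619.10, chr11:106263179-106272972, minus strand), lay at 0.775, 1.98 and 3.43 TPM for wild type and at 12.3, 18.5 and 26.1 TPM for clone 2. In clone 1 it was listed at 0 in 2 libraries and reached 3.40 TPM. Every clone 2 library was above every other library with unnamed transcripts. By name the difference was 3.38 ± 0.25 (limma adjusted p = 3.3e-09), and 1.20 (adjusted p = 0.0063) after scaling by the median of ratios. With unnamed transcripts it ran from 2.64 to 2.87 as single libraries were left out, and it was not called after scaling. None of the 3 measures called Smarcd2 in clone 1.

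BAF60c, encoded by Smarcd3 (ENSMUSG00000028949.13, chr5:24590818-24624411, minus strand), was the least abundant member in wild type and clone 1 by exon coverage, with medians of 0.174 and 0.0213 on the TPM scale. In clone 2 without MyoD its named and unnamed transcripts stood at 3.73 and 0.980 TPM when untreated and at 8.59 and 0 TPM when given plasmid. In clone 2 under MyoD they stood at 7.48 and 17.9 TPM, and at 8.20 and 11.6 TPM when given plasmid as well. The MyoD libraries were the higher ones, but 1 library without MyoD, at 8.59 TPM, lay among them. In wild type it ran from 0.469 to 3.38 TPM, and in clone 1 from 0, in 3 libraries, to 2.81 TPM. The RefSeq start shown above lies within the gene, and the unnamed Smarcd3 transcript with the highest TPM in clone 2 began downstream of that window.

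BAF250A, encoded by Arid1a (ENSMUSG00000007880.16, chr4:133679008-133756769, minus strand), is the DNA-binding subunit of the canonical complex. Wild type lay at 4.07, 5.24 and 9.24 TPM, clone 1 at 2.08, 5.72 and 9.74 TPM and clone 2 at 14.96, 29.3 and 35.1 TPM, where every library was above those of the other lines. The difference of clone 2 was 2.07 ± 0.22 with unnamed transcripts (limma adjusted p = 1.4e-07), 0.06 by name (adjusted p = 0.92) and -0.24 (adjusted p = 0.32) with unnamed transcripts scaled by the median of ratios. Clone 1 was lower by exon coverage only, at -0.62 (adjusted p = 0.0015), and that call was lost after scaling, at -0.18 (adjusted p = 0.43).

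The acetyltransferase p300, encoded by Ep300 (ENSMUSG00000055024.12, chr15:81585351-81652077, plus strand), was lower in both knockout clones than in wild type. The wild type libraries stood at 34.8 and 38.6 TPM untreated and 29.0 and 32.2 TPM under MyoD, and at 29.2 and 22.3 TPM given plasmid and 28.2 and 25.7 TPM given both, named and unnamed transcripts together. In clone 1 the same groups were at 13.4 and 14.5, 25.3 and 26.8, 11.98 and 14.1, and 12.9 and 15.6 TPM. In clone 2 they were at 16.7 and 14.6, 7.09 and 9.59, 16.0 and 14.8, and 16.1 and 21.8 TPM. All clone 2 libraries and 6 of 8 clone 1 libraries lay below the lowest wild type library, and the exceptions were both clone 1 libraries with MyoD alone, of which the first is the library with the low ribosomal share. The mean was 30.0 ± 5.13 TPM for wild type, 16.8 ± 5.82 TPM for clone 1 and 14.6 ± 4.49 TPM for clone 2 (SD, n = 8 each).

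The lower Ep300 was called in each clone in all 3 measures on the deposited scale. In clone 1 the difference was -1.38 ± 0.35 by name (limma adjusted p = 0.013), -0.84 ± 0.11 with unnamed transcripts (adjusted p = 6.7e-05) and -1.12 ± 0.12 by exon coverage (adjusted p = 2.3e-06). In clone 2 it was -1.85 ± 0.35 (adjusted p = 0.00017), -1.04 ± 0.11 (adjusted p = 2.1e-07) and -1.36 ± 0.12 (adjusted p = 5.2e-09). Scaling by the median of ratios gave -0.48 in clone 1 with unnamed transcripts (adjusted p = 0.0044), -0.53 by exon coverage (adjusted p = 0.0016) and -0.89 by name, where the call was lost (adjusted p = 0.13). In clone 2 it gave -3.31 with unnamed transcripts, -3.64 by exon coverage and -4.17 by name, all called. With unnamed transcripts, leaving out each of the 24 libraries in turn kept the difference between -0.89 and -0.79 in clone 1 and between -1.09 and -0.99 in clone 2.

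PCAF, encoded by Kat2b (ENSMUSG00000000708.14, chr17:53566861-53672720, plus strand), lay at 0.862, 1.42 and 3.04 TPM for wild type, 0.995, 1.84 and 3.84 TPM for clone 1 and 6.84, 9.12 and 14.2 TPM for clone 2. Clone 2 stood above both other lines in every library, and wild type and clone 1 overlapped. The difference of clone 2 was 2.03 ± 0.21 with unnamed transcripts (limma adjusted p = 1.5e-07) and 0.07 (adjusted p = 0.82) after scaling by the median of ratios. Clone 1 was not called in any measure.

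Counted over the members, clone 1 was lower for 4 genes by name (Smarcc1, Smarca4, Ep300 and Smarca2) and higher for 0 of the 9 tested, at a background of 14.2% of all genes called lower and 0.785% called higher. The member median was -0.996, and the median of all genes was -0.13. With unnamed transcripts 2 of 10 were lower (Ep300 and Smarcc1) at a background of 13.5%, and the member median was -0.20. Scaling by the median of ratios moved the background by name to 7.04% lower and 3.02% higher, with 2 members lower (Smarcc1 and Smarca4) and 0 higher. By exon coverage 6 of 10 were lower (Smarca4, Smarca2, Smarcc1, Smarcd1, Arid1a and Ep300) at a background of 25.1%, and after scaling 4 were (Ep300, Smarca2, Smarcd1 and Smarca4) at 8.8%. On the median of ratios scale with unnamed transcripts, Ep300 was lower and Smarca4 and Smarca2 were higher, at backgrounds of 7.7% and 3.79%. Ep300 was the member called lower by name, with unnamed transcripts, by exon coverage and with unnamed transcripts scaled.

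In clone 2, 5 members were higher by name (Smarcb1, Smarcd2, Smarca4, Smarca2 and Kat2b) and 1 was lower (Ep300), at a background of 68.1% of all genes higher and 4.67% lower. The member median of 1.26 was close to the 1.36 of all genes. With unnamed transcripts and by exon coverage all 10 were called, 9 higher and Ep300 lower, where 67.7% and 74.6% of all genes were higher and 4.5% and 5.34% lower. Most genes were higher in clone 2 on the TPM scale, as most members were, whereas Ep300 was lower where few genes were. Scaling by the median of ratios moved the background by name to 34.1% higher and 16.8% lower, with 2 members higher (Smarcb1 and Smarcd2) and 3 lower (Ep300, Smarcc1 and Arid1a). By exon coverage on that scale 3 were higher (Smarcb1, Smarcd2 and Smarca2) and 5 lower (Ep300, Smarcc1, Smarcd1, Smarca4 and Arid1a), at 36.1% and 22.5%. With unnamed transcripts on that scale, where 32.3% of all genes were higher and 19.9% lower, Smarcb1 and Smarca2 were higher, Ep300, Smarcc1 and Smarca4 were lower, and the others were not called.

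**Figure D2:**
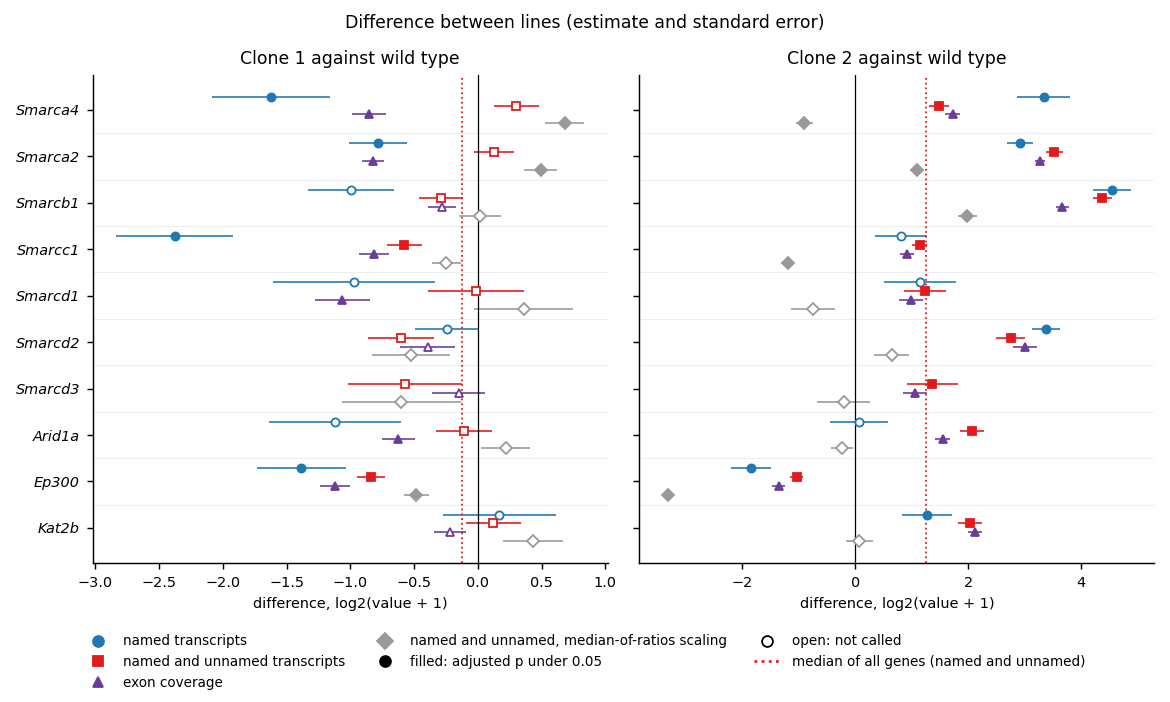
Log2 difference from wild type (horizontal axis) for each member (vertical axis) in clone 1 and clone 2, with standard errors, by name, with unnamed transcripts, by exon coverage and with unnamed transcripts scaled by the median of ratios. Filled symbols passed an adjusted p of 0.05 and the dotted line is the median of all genes with unnamed transcripts; Ep300 lies left of zero for every symbol in both clones. In clone 2 Smarca2, Smarcb1, Smarcd2 and Kat2b lie right of zero for every symbol, and the other 5 members have symbols on both sides.

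The response to MyoD was tested within each line, 4 libraries with the virus against 4 without. By name 0 of 9 members were called in wild type and 0 in clone 1, at backgrounds of 0.162% and 0.108% of all genes, and 0 had an unadjusted p under 0.05 in either (limma). With unnamed transcripts the count was 0 in both lines, at backgrounds of 0.16% and 0.185%, with 0 members under an unadjusted p of 0.05 in wild type and 3 in clone 1, Smarcc1 at 0.59 ± 0.19, Ep300 at 0.49 ± 0.16 and Arid1a at 0.73 ± 0.31. Their adjusted p-values were 0.35, 0.35 and 0.55. At that point Myog, the muscle regulator that MyoD activates, was at 2.42 to 5.05 TPM in wild type with MyoD and at 0 to 2.69 TPM in clone 1, against 43.9 to 120 TPM in clone 2, and it was listed at 0 in every library without MyoD.

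In clone 2 with MyoD, Ep300 fell by name by 1.82 ± 0.49 on the log2 scale (limma adjusted p = 0.014), the 1 member called, at a background of 25.4% of all genes in either direction and 21.4% lower. Its named transcripts were at 13.3, 9.13, 16.0 and 14.8 TPM without MyoD and at 5.69, 1.05, 2.28 and 4.66 TPM with it, with no overlap. Without the second clone 2 library with MyoD alone, at 1.05 TPM, the value was -1.39 (adjusted p = 0.065). With unnamed transcripts the groups overlapped and the difference was -0.29 (adjusted p = 0.23), by exon coverage it was -0.58 (adjusted p = 0.011), by name after scaling by the median of ratios it was -0.89 (adjusted p = 0.36), and with unnamed transcripts on the median of ratios scale it was 0.10 (adjusted p = 0.88). The typical gene also stood lower with MyoD in clone 2, with a median over all genes of -0.33 by name, and the fibroblast markers fell as given above, with 5 of 6 called lower by name. The part of this in the values for Ep300 and Smarcd3 was not tested. The 21.4% of genes called lower by name, against 4.03% higher, became 4.06% and 4.41% after scaling by the median of ratios.

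Smarcd3 was the member that rose with MyoD in clone 2. The increase was 1.92 ± 0.63 with unnamed transcripts (limma adjusted p = 0.043), the 1 call among 10 members at a background of 4.12% of all genes higher, and 1.26 ± 0.30 by exon coverage (adjusted p = 0.0034), at a background of 6.82%. On the exon coverage scale the libraries without MyoD were at 1.06, 0.138, 1.80 and 0.0464 and those with it at 2.00, 4.29, 2.43 and 3.16, so the groups did not overlap. By exon coverage Smarca4 at -0.68 (adjusted p = 0.0094), Arid1a at -0.57 (adjusted p = 0.022) and Ep300 were lower, at a background of 30.4%. After scaling by the median of ratios 0 members were called, at backgrounds of 8.25% with unnamed transcripts and 14.2% by exon coverage (limma; 1 and 2 members had an unadjusted p under 0.05). Smarcd3 was then at 1.45 with unnamed transcripts (adjusted p = 0.23) and 0.63 by exon coverage (adjusted p = 0.15). Without the second clone 2 library with plasmid alone, in which Smarcd3 was listed at 0, the difference with unnamed transcripts was 1.11 (adjusted p = 0.22), and by exon coverage it was 0.91 (adjusted p = 0.020). Over all 24 such fits Smarcd3 stayed called in 11 with unnamed transcripts and in 24 by exon coverage, while Arid1a by exon coverage lost its call, with adjusted p up to 0.075, without the clone 2 library 1 untreated or with plasmid alone or the library 2 with both.

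**Figure D3:**
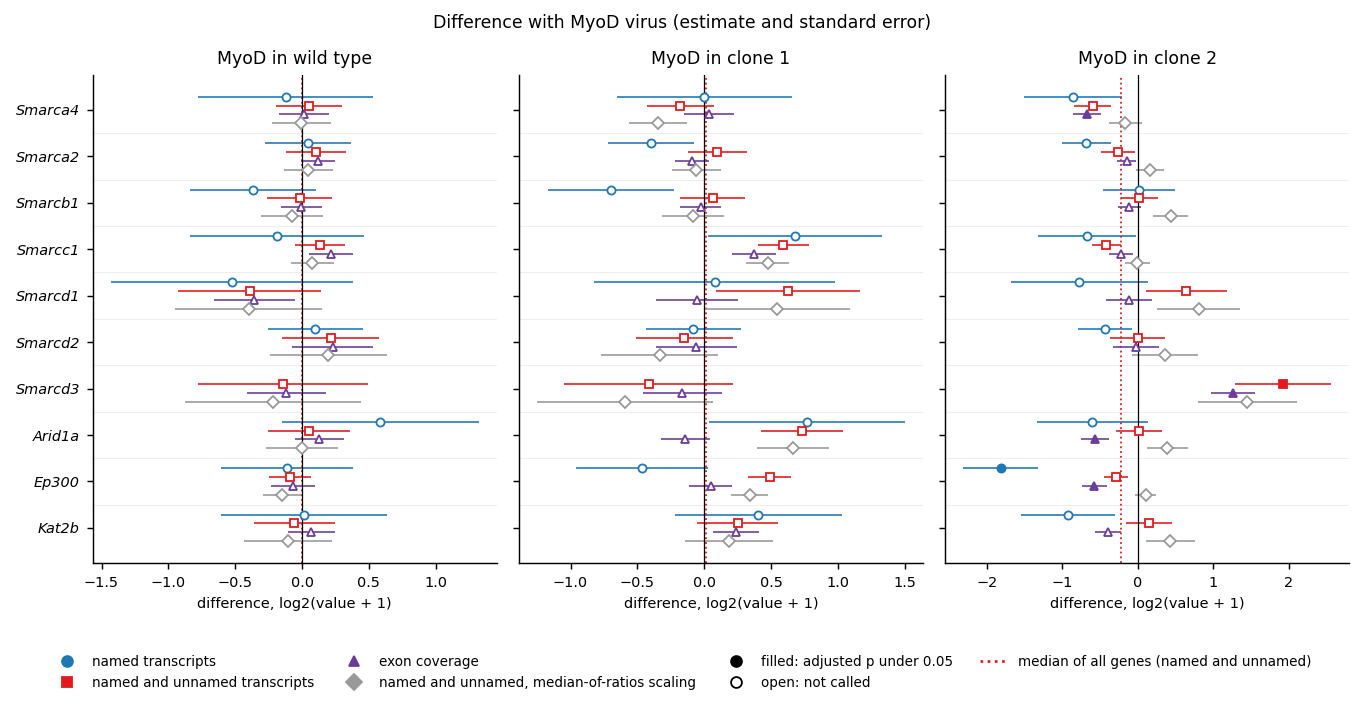
Log2 difference between libraries with and without MyoD virus (horizontal axis) for each member (vertical axis) in the 3 lines, with standard errors, in the same 4 countings as for the lines. Filled symbols passed an adjusted p of 0.05 and the dotted line is the median of all genes; filled symbols appear in clone 2 only, for Smarcd3 on the right at 1.92 and 1.26 and for Ep300, Smarca4 and Arid1a on the left.

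The difference between the MyoD responses of clone 2 and wild type was tested directly. By name and with unnamed transcripts it called 0 members, where 11.8% and 7.31% of all genes were called, and 1 member in each had an unadjusted p under 0.05 (limma), Ep300 by name at -1.71 ± 0.70 (adjusted p = 0.13) and Smarcd3 with unnamed transcripts at 2.07 ± 0.90 (adjusted p = 0.19). By name 10.7% of genes were called lower and 1.12% higher, which became 1.47% and 1.2% after scaling by the median of ratios. By exon coverage it called Smarcd3, at 1.38 ± 0.42 (adjusted p = 0.029), at a background of 2.5% of all genes higher, and the value after scaling was 0.80 (adjusted p = 0.28). The same test for clone 1 called 0 members by name at a background of 0.012%, with 0 at an unadjusted p under 0.05. The LncMyoD plasmid, averaged over the lines, called 0 members by name at a background of 0.12%, again with 0 at an unadjusted p under 0.05. With unnamed transcripts the plasmid called 0 as well, at a background of 0.03%, and Smarca4 at -0.31 ± 0.14 had an unadjusted p of 0.048 and an adjusted p of 0.85 (limma).

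Shares between paralogs were compared within each library, since a ribosomal transcript that takes part of the TPM lowers both partners alike. The 15 comparisons used two-sided exact permutation tests, adjusted together, whose smallest possible p between lines is 0.00154. Counting named and unnamed transcripts, Ep300 made up 88.0% ± 3.94 of the sum of Ep300 and its paralog Crebbp (CBP) in wild type, 65.6% ± 4.35 in clone 1 and 24.3% ± 10.9 in clone 2 (SD, n = 8). The 3 lines did not overlap, and both clones differed from wild type (exact permutation p = 0.00154, adjusted p = 0.00772). Crebbp itself ran from 2.34 to 6.39 TPM for wild type, 6.02 to 15.8 TPM for clone 1 and 22.5 to 132 TPM for clone 2. In clone 2 Crebbp was higher with unnamed transcripts at 3.31 and by exon coverage at 2.76 (limma adjusted p = 2.2e-09 and 9.2e-14), and by name it was at -0.59 (adjusted p = 0.33). In clone 1 its direction turned with the measure, at 0.94 with unnamed transcripts (adjusted p = 0.017), -0.49 by exon coverage (adjusted p = 0.0024) and -1.17 by name (adjusted p = 0.18). By exon coverage the shares were 88.8%, 85.3% and 23.9%, and clone 1 was no longer called (exact permutation adjusted p = 0.058). By name they were 91.6%, 89.0% and 80.8%, and neither clone was called (exact permutation adjusted p = 1 and 0.648).

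Smarca2 made up 41.7% ± 4.84 of the ATPase transcripts in wild type, 39.0% ± 9.27 in clone 1 and 75.4% ± 2.90 in clone 2 (SD, n = 8). Clone 2 did not overlap wild type (exact permutation adjusted p = 0.00772), and clone 1 was not called (exact permutation adjusted p = 0.484). By exon coverage the share in clone 2 was 54.9% against 25.9% in wild type (exact permutation adjusted p = 0.00772). By name it was 45.6% against 60.1% (exact permutation adjusted p = 0.648), the opposite order, from libraries in which Smarca4 had no named transcript. Coverage of the 2 genes along their transcripts also differed between lines, as given below, and its part in the share was not tested.

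Kat2b made up 12.6% ± 5.65 of the sum of Kat2a (GCN5) and Kat2b in wild type, 31.2% ± 12.8 in clone 1 and 31.1% ± 9.65 in clone 2 (SD, n = 8). Both clones were called (exact permutation adjusted p = 0.0139 and 0.0116), and by exon coverage clone 2 was, at 25.2% against 6.75% (exact permutation adjusted p = 0.00772). By name clone 2 was the 1 share called, at 9.93% against 0.409% (exact permutation adjusted p = 0.0463), with Kat2b under 1 TPM by name in all 8 wild type libraries. That call by name was lost when any 1 of the 8 wild type libraries was left out (exact permutation adjusted p from 0.428 to 0.625), under the replicate block (0.117) and without plasmid libraries (0.486). Kat2a itself was lower in clone 1 and higher in clone 2 with unnamed transcripts, at -1.25 and 0.86 on the log2 scale. In none of the 3 measures were the share of Arid1a with Arid1b and that of Smarcd3 among the BAF60 genes called between lines. None of the 5 shares was called for MyoD in any measure, in a test that pooled the 3 lines. MyoD within clone 2 alone was not tested. There, by exon coverage, the Smarca2 share was 48.8% to 52.3% without MyoD and 56.9% to 63.7% with it. The Smarcd3 share was 0.256% to 5.88% and 6.57% to 21.1%, and the other shares overlapped. With unnamed transcripts the Smarca2 share was 71.8% to 75.3% without MyoD and 75.9% to 79.9% with it. The Smarcd3 share then overlapped, at 0% to 20.5% and 16.3% to 45.6%. By name both overlapped, at 40.6% to 46.2% and 24.1% to 56.5% for Smarca2. For Smarcd3 by name they were 0% to 9.69% and 0% to 5.92%.

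**Figure D4:**
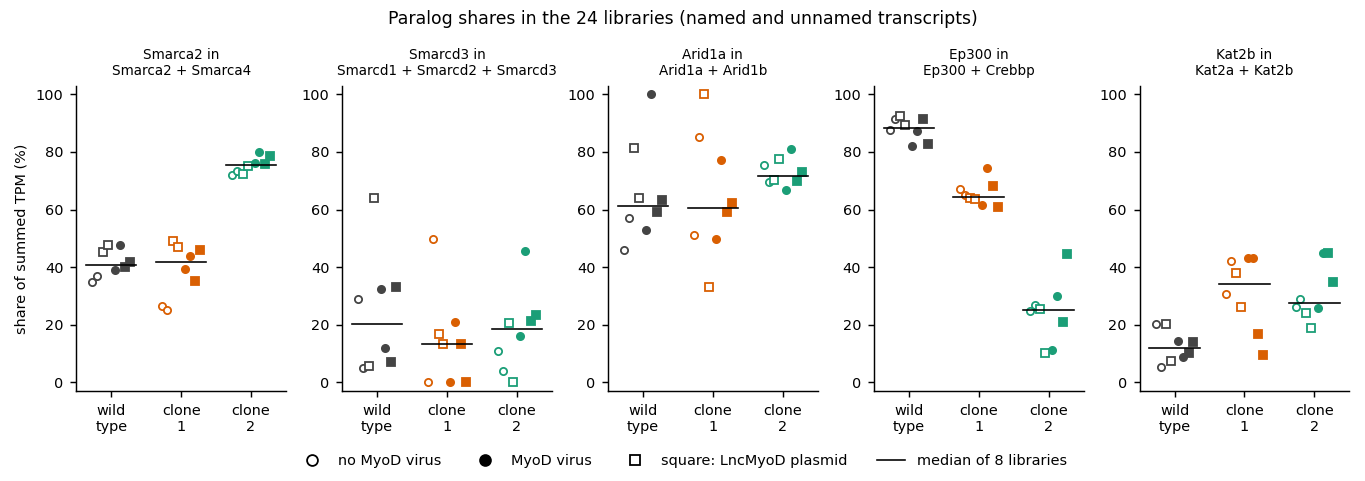
Share of a member in the summed TPM of its paralog group (vertical axis, percent) in each of 24 libraries, by line, for 5 paralog groups, counting named and unnamed transcripts. Bars are medians of 8 libraries. The median Ep300 share steps down from 88.5% in wild type over 64.5% in clone 1 to 25.2% in clone 2. The median Smarca2 share is 75.6% in clone 2, against 40.9% in wild type and 41.7% in clone 1.

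Coverage along the transcript differed between the lines for most members. Each member's longest coding transcript was divided at its middle, and the deposited coverage per base was averaged over the 5′ part and the 3′ part. The median over members of the percentage in the 5′ part was 66.8% for wild type, 62.0% for clone 1 and 29.4% for clone 2. For Smarca4 the median coverage of the 5′ and the 3′ part was 17.2 and 1.29 in wild type, 7.93 and 0.797 in clone 1, and 31.7 and 31.3 in clone 2. Its 3′ part was thus thinly covered in both lines that had libraries without a named Smarca4 transcript. Smarca2 had 9.05 and 4.29 in wild type and 45.1 and 127 in clone 2. In wild type Smarca2 was thus below Smarca4 in the 5′ part and above it in the 3′ part, and in clone 2 above it in both. Arid1a had 5.04 and 3.43 in wild type but 3.19 and 26.8 in clone 2, so its higher level in clone 2 lay in the 3′ part. Smarcc1 had 11.3 in the 5′ part in both wild type and clone 2, and 6.74 against 23.8 in the 3′ part. Ep300 had 40.3 and 18.8 in wild type, 14.7 and 9.25 in clone 1, and 11.4 and 10.3 in clone 2, lower than wild type in both parts in both clones. The part of this difference in coverage shape in the differences between lines, and in those of paralog shares, was not tested.

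**Figure D5:**
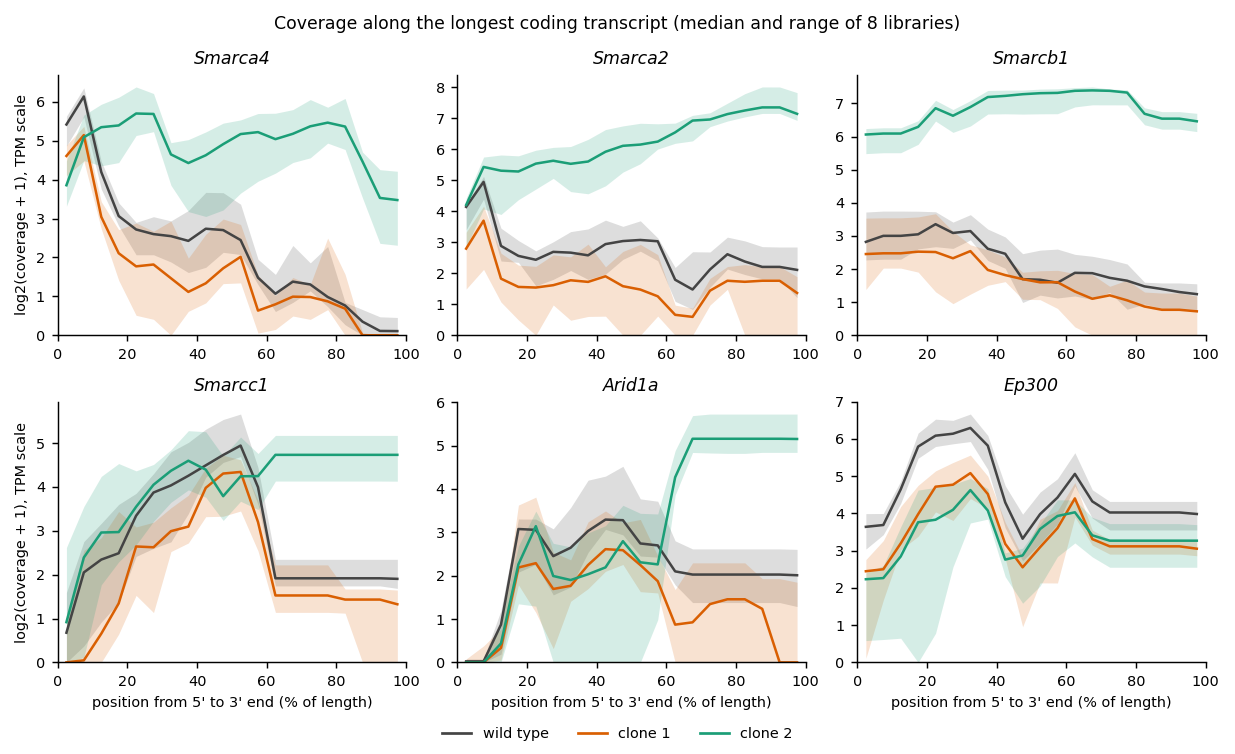
Deposited coverage along the longest coding transcript of 6 members, from the 5′ end to the 3′ end in equal bins (horizontal axis), as log2(coverage + 1) (vertical axis), with the median and range of 8 libraries per line. The Smarca4 median falls from 41.7 in the first bin to 0.0769 in the last in wild type and from 13.5 to 10.1 in clone 2, where it peaks between; the Ep300 median peaks in the seventh bin in each line, at 77.5 in wild type, 32.9 in clone 1 and 23.7 in clone 2, and is highest in wild type in all 20 bins.

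The other genes of the same machinery show what the members were set against, from 4 lists with named and unnamed transcripts. For clone 1 the shares of all genes called there were 13.5% lower and 1.31% higher. In clone 1, 5 of 19 tested other SWI/SNF subunits were lower and 0 higher with a list median of -0.33, led by Smarce1 at -1.69, Bcl7a at -1.28 and Bicral at -0.93. Of 21 other MyoD coactivators and partners 7 were lower and 1 higher (Crebbp) with a median of -0.50, including Setd7 at -1.31, Kat2a at -1.25 and the RNA helicase Ddx5 at -1.16. Of 13 corepressors 3 were lower, Ehmt1, Suv39h1 and Hdac3, with a median of -0.39, and of 12 genes of other remodelling ATPase complexes 2 were lower, Ep400 and Bptf, with a median of -0.17. The median of all genes was -0.12 in that comparison. By name 4 of 18, 6 of 21, 3 of 13 and 1 of 10 genes of the 4 lists were lower, against 14.2% of all genes. By exon coverage the counts were much higher, at 11 of 17, 16 of 21, 10 of 13 and 6 of 11 lower, against 25.1% of all genes.

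In clone 2 the lists stood near or above the median of all genes, which was 1.26 with unnamed transcripts, where 67.7% of all genes were higher and 4.5% lower. Other SWI/SNF subunits had 14 of 19 higher and 2 lower (Bcl7a at -1.60 and Bicra at -0.72) with a median of 1.99, with Ss18 at 4.002 and Brd7 at 3.96. The coactivators had 17 of 21 higher and 0 lower with a median of 2.02, the corepressors 12 of 13 and 0 with 2.20, led by the deacetylases Hdac3, Hdac2 and Hdac1 at 4.07, 4.02 and 3.94, and the other ATPase complexes 9 of 12 and 2 (Srcap and Ep400) with 1.41, led by Mbd3 at 4.21. By name the coactivators had 13 higher and 2 lower, Ncoa2 at -1.48 and Chd2 at -0.83, and by exon coverage 18 and 0. The genes named here as lower, Crebbp above as the 1 higher, and Arid2 and Smarca1 below were picked after their values were seen. No gene of the 4 lists passed the test for MyoD in wild type or in clone 1. In clone 2 with unnamed transcripts, where 15.4% of all genes were called lower and 4.12% higher, it called Ddx5 at -1.11 among the coactivators and Hdac5 at -0.97 and Ehmt1 at -0.81 among the corepressors, all lower. No SWI/SNF subunit or gene of the other ATPase complexes was called on that measure. By name 1 SWI/SNF subunit (Arid2 at -3.28), 5 coactivators, 3 corepressors and 2 genes of the other complexes were lower and 1 (Smarca1 at 1.18) was higher, against 21.4% and 4.03% of all genes. By exon coverage 6, 10, 5 and 6 genes of the 4 lists were lower and 0 higher, against 30.4% and 6.82%.

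Across the 24 libraries, after the mean of each line was removed, the genes whose log2 level moved most like a member were named for 3 members among 8001 genes with a mean of at least 5 TPM. For Smarcd3 they were Map3k11, Rpl17 and Magohb, with Pearson r of 0.77, 0.76 and 0.69. For Smarca2 they included Galnt10 and Eif3a, with r of 0.81 and 0.78, and for Smarca4 they were Ehbp1l1, Atp6v0a2 and Abtb2, with r of 0.82, 0.81 and 0.81. These correlations describe libraries that share the same assembly and treatments. They are the highest among 8001 genes, and how high r would reach among that many unrelated genes was not tested.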

How the data were processed

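Full-length cDNA of polyadenylated RNA was prepared without a mark of strand, so antisense and overlapping genes are uncertain, and 2 x 100 nt reads were sequenced, per the labels. Per the submitters' processing notes the build was mm10 and the tools included HISAT2 2.1.0 and StringTie 1.3.3, while the file headers name StringTie 2.1.2 guided by an annotation and assembling unannotated transcripts. Each deposited file lists 1 library's transcripts with TPM, FPKM and coverage, which the authors computed. No read counts were used, so no counting interval is given. A gene listed at 0 can be a failed assembly.

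TPM was summed per gene over transcripts that bear its name, which was the main measure. As alternatives, unnamed transcripts were added where at least 50% of their exonic length lay in 1 gene on the same strand, or coverage was averaged over annotated exons, a measure chosen after seeing the data. Genes at 1 TPM or more in at least 2 libraries were tested, 16695 by name, with limma 3.58.1 (R 4.3.3), a mean-variance trend, log2(TPM + 1), 12 group means and 12 residual degrees of freedom. Fold changes on that scale understate those of low genes. Calls were made where p, adjusted by Benjamini-Hochberg over all genes tested, was under 0.05. The 8 comparisons of lines, MyoD, responses and plasmid use the groups in the labels. In data simulated for this test by name, clone 1 against wild type recovered 92% of genes changed by 1 on the log2 scale. It recovered 100% of those changed by 2, and MyoD in clone 2 recovered 37% and 99%. The changed genes were drawn only from genes well above 1 TPM by name in wild type. These percentages do not cover members below that level, such as Kat2b and Smarcd2, under 1 TPM in 8 and 7 wild type libraries. Recovery was not tested for members listed at 0 by name in some libraries, such as Smarca4 in 4 wild type libraries. Recovery was also not tested for members whose 2 libraries of a group differed widely. By name the largest such log2 difference was 3.45 for Smarca4, 3.84 for Smarcd1 and 2.81 for Smarcc1.

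The members, the 4 gene lists and the 7 marker lists were chosen with earlier results of these data known. The text names all members, up to 3 called genes with the largest change per list, the paralogs used in shares, Myod1 and Myog, and the 3 genes most like Smarcd3, Smarca2 and Smarca4. Of the last, 1 gene is not reported here. Replicate numbers were not used as pairs, since all 66 correlations of same-numbered libraries' deviations were below 0.1. Such correlations over all genes cannot show whether same-numbered libraries were made together, and the labels do not say. Promoter sequences are from RefSeq.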

Additional observations from a re-analysis of the deposited data

Results flagged for a closer look

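The response of Smarcd3 to MyoD differed between clone 2 and wild type by exon coverage, in a direct test of the difference, by 1.38 ± 0.42 on the log2 scale (limma adjusted p = 0.029). The same difference was 2.07 ± 0.90 with unnamed transcripts (adjusted p = 0.19), and by name Smarcd3 was too low to be tested. Median of ratios scaling ended the call by exon coverage and moved the value to 0.80 (adjusted p = 0.28). By exon coverage it stayed called in 16 of 24 fits that each left out 1 library, with values from 1.02 to 1.73. The lowest was without the second clone 2 library with plasmid alone (adjusted p = 0.066).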

How the results depend on the processing

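The count of members called in clone 1, 4 by name, was 2 with a pseudocount of 5, without the filter on low values, with median of ratios scaling, with unnamed transcripts and with those and a replicate block. Leaving out single libraries gave 2 to 5 by name, 2 to 3 with unnamed transcripts and 6 to 7 by exon coverage. In clone 2 the 6 became 10 with unnamed transcripts or exon coverage, with or without the block. With libraries left out it was 5 to 7 by name and 10 in each fit of the other measures. With all libraries and no block, 67.7% of all genes were called higher in clone 2 with unnamed transcripts and 74.6% by exon coverage. In clone 1 by exon coverage 25.1% were called lower. For the settings not named in the sections above, the share of all genes called is not given. These counts therefore show only how each count moved. For MyoD in clone 2 the 1 became 2 with a pseudocount of 5, 4 by exon coverage with or without the replicate block, and 0 with median of ratios scaling in each measure, without ribosomal and mitochondrial transcripts, on FPKM, with clone 2 fitted alone, without plasmid libraries and with unnamed transcripts and the block. With libraries left out it was 0 to 1 by name or with unnamed transcripts and 3 to 4 by exon coverage. For the response of clone 2 against wild type the 0 became 1 by exon coverage with or without the block, and with libraries left out 0 to 1 by name or with unnamed transcripts and 0 to 2 by exon coverage.

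In clone 1, Smarca4 turned from -1.62 to 0.30 with unnamed transcripts, with or without the replicate block, and 0.68 with scaling as well, and with libraries left out ran from -2.05 to -1.19 by name and from 0.16 to 0.44 with unnamed transcripts. Smarca2 turned from -0.78 to 0.13, with or without the block, and 0.49, and ran from -0.91 to -0.65 by name and from 0.02 to 0.23 with unnamed transcripts. In clone 2 Smarca4 turned to -0.90 with unnamed transcripts and -0.92 by exon coverage after scaling, and Ep300 with MyoD turned to 0.10. Among differences in shares, in percentage points, the Smarca2 share in clone 2 turned from -14.5 by name to 33.7 with unnamed transcripts and 29.0 by exon coverage. The Ep300 share moved from -2.61 to -22.4 in clone 1 with unnamed transcripts and ran from -4.18 to 5.99 with libraries left out, and in clone 2 it moved from -10.8 to -63.8 and, by exon coverage, -65.0. The Kat2b share was 25.6 by name and 18.6 with unnamed transcripts in clone 1. In clone 2 it was 9.52, lost its call under the replicate block at the same 9.52 and without plasmid libraries at 12.8, lost it without any 1 wild type library, and ran from 6.93 to 10.9 with libraries left out. As a difference of log2(TPM + 1), the Kat2b share became 2.17 in clone 1 and 0.54 in clone 2, and the Smarcd3 share in clone 2 turned from 2.01 to -2.38. The cause of these changes was not tested.

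The limits are 2 libraries per group, 1 clone per knockout line, assembly that drops low genes, unequal coverage along transcripts and TPM that depends on how much ribosomal sequence a library holds. The number of reads behind single values is unknown.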
